A study of Mus musculus with 6 samples.

Results

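The genes described here are the subunits of integrins, the receptors by which cells hold on to matrix, and the focal adhesion adaptors that tie integrins to actin and to signalling. They were chosen by name, as 19 subunit genes and 29 adaptor genes, and a probe set carrying the symbol was found for 45 of the 48, out of 19505 genes named on the array. Itga1 and Itga10, which encode partners of the β1 chain in collagen receptors, and Ptk2, which encodes focal adhesion kinase, are not analysed here. Affymetrix Clariom S arrays measured the transcripts of ID8, an established mouse line of ovarian cancer kept in culture. All cultures were serum starved for 24 h. They then received 200 ng/mL of recombinant CCL6, a macrophage chemokine that acts through the receptor CCR1, for 6 h, or were left unstimulated, with 3 arrays per group, 1 for each replicate that the labels call biological. The study turned to these arrays for pathways behind migration toward CCL6. It placed integrin-mediated cell adhesion among the pathways of genes it called upregulated, by an array test that its methods do not name. The model is 1 cell line, and an array reads the average of a culture, so that fewer expressing cells and less RNA per cell cannot be told apart.

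Each integrin is a pair of an α and a β chain, and the pair decides which matrix protein is bound. Talins and kindlins bind the tail of the β chain and switch the receptor on, vinculin, zyxin and tensins carry the link to actin, and a core of integrin-linked kinase, PINCH and parvin holds the complex together. Focal adhesion kinase, its relative PYK2 and Src family kinases phosphorylate paxillin and p130Cas, which recruit Crk and DOCK1 to the cell edge during migration. In peritoneal spread of ovarian cancer, integrins are known for binding fibronectin, laminin and collagen beneath the mesothelium. Much of their control lies in protein shape, phosphorylation and position at the membrane, none of which an mRNA array reads.

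Values are RMA values on a log2 scale, so that a difference of 1 is 2-fold. A probe set was called above background when its mean in at least 1 group exceeded 4.85. This level is the 95th percentile of 1450 genes for smell, pheromone and taste receptors, and 56.5% of the 22206 probe sets passed it. Genes under it may still be transcribed. Array medians lay between 5.42 and 5.49. Of the epithelial and mesothelial markers 8 of 9 were above background, among them Krt8, Krt18, Krt19, Wt1, Msln and Upk3b, whereas Epcam was not. Krt7 was above it in the CCL6 mean only, at 5.09 against 4.78 in unstimulated cells. Of the leukocyte and macrophage markers 1 of 8 (Cd14) was above background, of the endothelial markers 1 of 6 (Vwf), and of the fibroblast and smooth muscle markers 3 of 6 (Acta2, Dcn and Myh11). Dcn averaged 15.72 after CCL6 and 15.58 in unstimulated cells, Acta2 averaged 9.14 and 9.94, and Myh11 averaged 5.47 and 5.47 in the same order. The mean of the leukocyte list lay between 4.05 and 4.20 in CCL6 arrays and between 3.88 and 4.17 in unstimulated arrays. The arrays did not group by treatment. On the first principal component, with 50.8% of the variance, CCL6 replicates 1 and 2 and unstimulated replicate 3 lay on one side, and CCL6 replicate 3 and unstimulated replicates 1 and 2 on the other. The mean of 23 proliferation genes was 12.74, 13.07 and 11.41 in CCL6 replicates 1, 2 and 3, against 11.57, 11.80 and 12.94 in the unstimulated ones, so that both arrays numbered 3 stood apart from their groups.

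ID8 cells gave a signal above background for 12 of the 17 measured subunits, namely Itga3, Itga5, Itga6, Itga8 and Itgav among the α chains and each of the 7 β chains measured. The 5 that were not above it were Itga2 and Itga11, whose products bind collagen, Itga7, a laminin receptor chain of muscle, and Itga4 and Itga9, whose products bind VCAM1 and matrix proteins. Of 18 pairs that these subunits are known to form, 16 had both chains measured, and 9 had both above background in both groups. These were the laminin receptors α3β1, α6β1 and α6β4, the fibronectin receptor α5β1, and αv with β1, β3, β5, β6 or β8, which bind the RGD motif of vitronectin, fibronectin or latent TGF-β. A pair with Itga8, whose product binds nephronectin with the β1 chain, was added after CCL6 only, by a narrow margin given below. Itgb7 was above background on every array, but Itga4, its partner gene among the subunits described here, was not on any. None of these pairs was measured as protein.

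**Figure D1:**
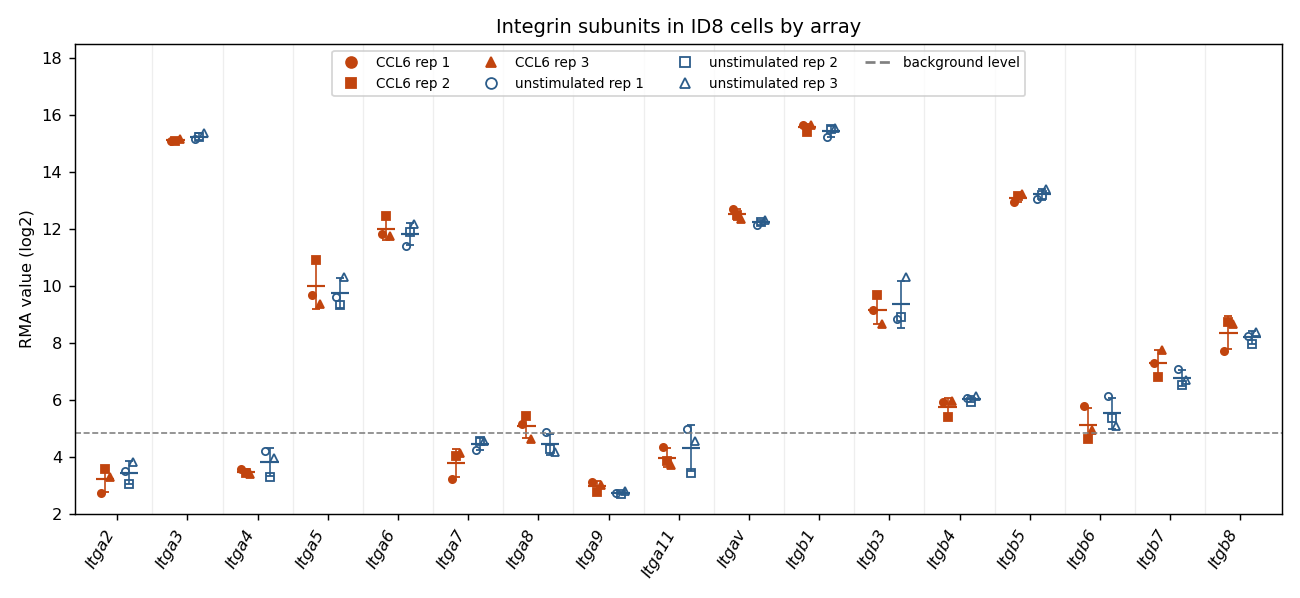
RMA value (log2, vertical axis) of the 17 measured integrin subunits on each array. Filled orange symbols are CCL6 replicates and open blue symbols unstimulated replicates, horizontal bars are group means, whiskers are SD (n = 3), and the dashed line is the background level of 4.85. Itga2, Itga4, Itga7, Itga9 and Itga11 have both group means below the line, and the groups overlap for all subunits but Itgav and Itga7.

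The β chains used most widely by adherent cells differed between groups by less than their errors. Itgb1, the common β1 chain, read 15.64, 15.42 and 15.66 in CCL6 replicates 1, 2 and 3, against 15.22, 15.53 and 15.56 in unstimulated replicates 1, 2 and 3. The difference was 0.14 (SE 0.23), with a 95% interval of -0.39 to 0.66 on the log2 scale, and the groups overlapped. Itgb5, the β5 chain of a vitronectin receptor, read 12.94, 13.15 and 13.24 after CCL6, against 13.05, 13.19 and 13.42 in unstimulated cells. Its difference of -0.11 (SE 0.23) had an interval of -0.64 to 0.43. For both genes the interval held no 2-fold change in either direction.

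Itgb3, the β3 chain of the αv vitronectin receptor, read 9.15, 9.69 and 8.67 after CCL6, against 8.86, 8.92 and 10.33 in unstimulated cells. One unstimulated array, replicate 3, was higher than all others. The difference was -0.20 (SE 0.44), and it was 0.28 without that array and 0.05 without CCL6 replicate 3. Itga5, the α chain of the fibronectin receptor, read 9.69, 10.93 and 9.39 after CCL6, against 9.61, 9.34 and 10.33 in unstimulated cells. CCL6 replicate 2 and unstimulated replicate 3 were the high arrays, and the groups overlapped. Its difference of 0.25 (SE 0.43) had an interval of -0.74 to 1.24, and without CCL6 replicate 2 it was -0.22. Neither gene kept its direction when single arrays were left out.

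Itgav, the αv chain that pairs with several β chains, was the one subunit above background whose groups did not overlap. It read 12.72, 12.50 and 12.35 after CCL6, against 12.15, 12.25 and 12.32 in unstimulated cells. The lowest CCL6 array was only just above the highest unstimulated one. The difference was 0.28 (SE 0.23), or 1.22-fold, with an interval of -0.24 to 0.80 and a limma adjusted p = 0.999. Of the 45 members 2 were higher without overlap and 1 lower, where 3.77% of all probe sets were higher, 4.41% lower and 8.19% either, so that the share was near the background.

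None of the other subunits above background had an interval clear of 0. Itgb7, the β7 chain known from lymphocytes, read 7.32, 6.81 and 7.77 after CCL6, against 7.10, 6.53 and 6.72 in unstimulated cells. Its difference of 0.52 (SE 0.31) was positive on balance, but CCL6 replicate 2 lay below unstimulated replicate 1. Itgb4, the laminin-binding β4 chain of hemidesmosomes, read 5.93, 5.41 and 5.98 after CCL6, against 6.07, 5.93 and 6.15 in unstimulated cells. CCL6 replicate 2 alone lay clearly below the rest, and the difference was -0.28 (SE 0.25). Itgb6, an epithelial β chain that activates TGF-β, read 5.81, 4.62 and 4.97 after CCL6, against 6.13, 5.37 and 5.10 in unstimulated cells. It lay close to the background level, with 2 CCL6 arrays and 3 unstimulated arrays above it, and differed by -0.40 (SE 0.38). Itga3 averaged 15.13 ± 0.04 after CCL6 and 15.25 ± 0.11 in unstimulated cells, Itga6 averaged 12.02 ± 0.40 and 11.83 ± 0.39, and Itgb8 averaged 8.38 ± 0.57 and 8.20 ± 0.22 in the same order (SD, n = 3 each). Itga3 and Itga6 are laminin-binding α chains, and Itgb8 is another TGF-β-activating β chain.

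Itga8 was the only subunit with group means on either side of the background level. It read 5.17, 5.44 and 4.63 after CCL6, against 4.87, 4.30 and 4.17 in unstimulated cells, and 2 CCL6 arrays and 1 unstimulated array were above the level. The CCL6 mean as measured was 1.17-fold above the unstimulated mean with its readings below background raised to that level. CCL6 readings below the level were not raised, so that this figure does not bound the difference. The groups overlapped, and the measured difference of 0.64 (SE 0.31) had an interval of -0.06 to 1.33 and a limma adjusted p = 0.999. Of the 5 subunits below background, Itga7 had the largest difference, at -0.66 (SE 0.30), with 3.23, 4.04 and 4.14 after CCL6, against 4.24, 4.56 and 4.59 in unstimulated cells. All 6 arrays lay under the background level, so that no fold is given.

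Among the adaptors 26 of 28 were above background, the exceptions being Fermt1, the kindlin of keratinocytes, and Parvb, a parvin. The means of Fermt1, 4.73 ± 0.48 after CCL6 and 4.83 ± 0.69 in unstimulated cells (SD, n = 3 each), were only just below the level, with 2 CCL6 arrays and 1 unstimulated array above it. Parvb was below it on all arrays. The related genes Fermt2 and Parva were above background on every array.

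**Figure D2:**
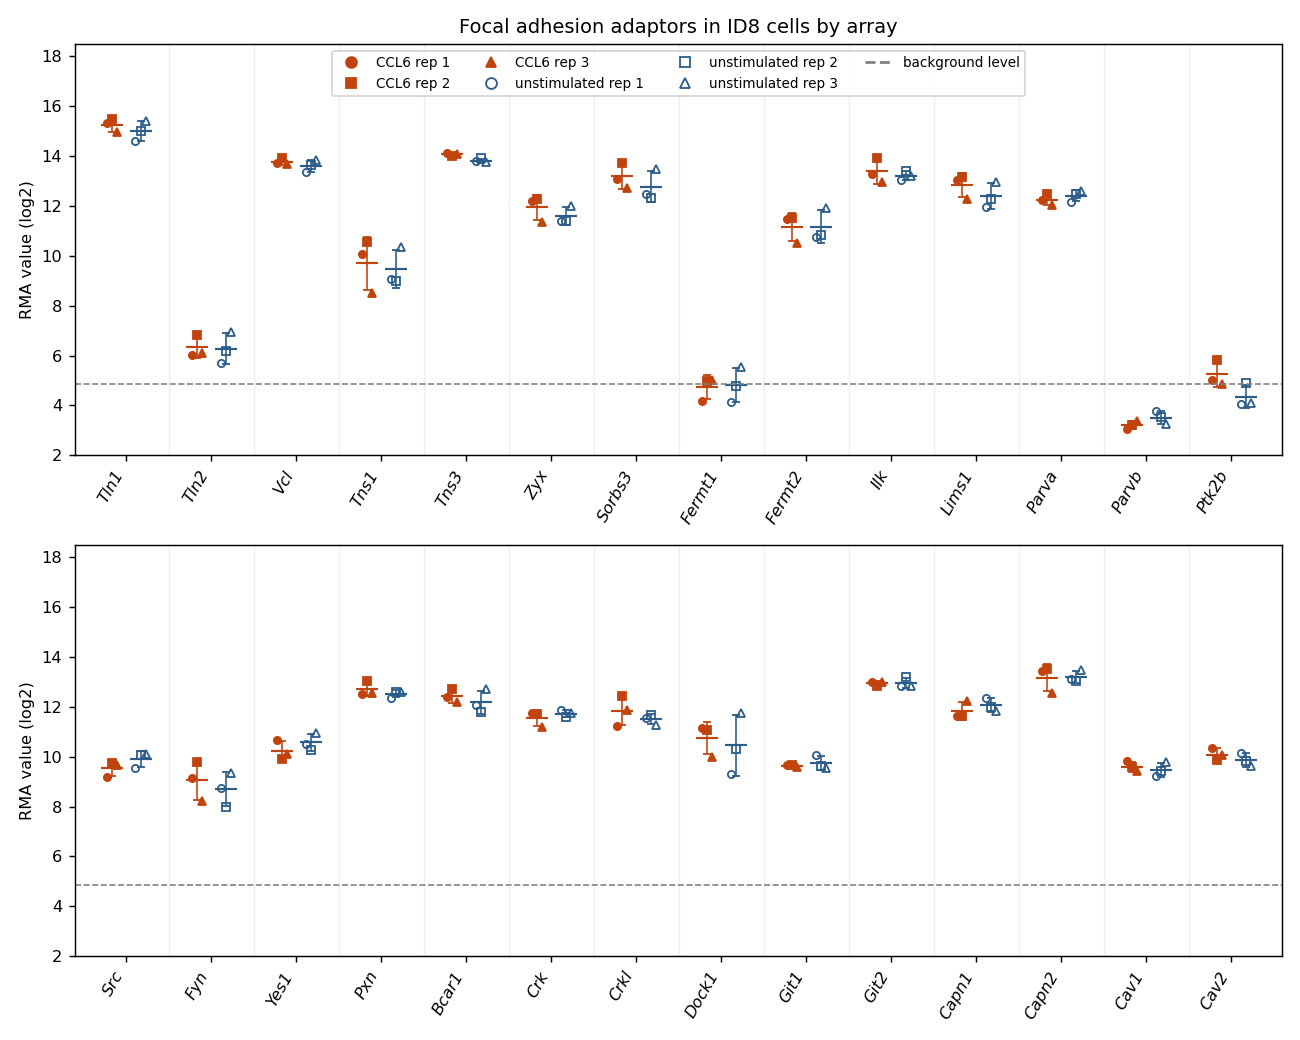
RMA value (log2, vertical axis) of the 28 measured focal adhesion adaptors on each array, with symbols, bars (mean), whiskers (SD, n = 3) and background line drawn as for the subunits. Fermt1 and Parvb have both group means below the line, Ptk2b has its CCL6 mean above and its unstimulated mean below, and the groups overlap for every adaptor but Tns3.

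Ptk2b, which encodes the calcium-responsive focal adhesion kinase relative PYK2, had the smallest p of all members. Its probe set, TC1400002267.mm.2, read 5.04, 5.84 and 4.86 after CCL6, against 4.08, 4.88 and 4.10 in unstimulated cells. All 3 CCL6 arrays and 1 unstimulated array were above background, and the groups overlapped, since unstimulated replicate 2 read slightly above CCL6 replicate 3. The measured difference was 0.89 (SE 0.35, 95% interval 0.10 to 1.68), with a limma adjusted p = 0.999. Against unstimulated readings raised to the background level where they lay below it, the CCL6 mean as measured was 1.31-fold higher. Ptk2b was the 1 member of 45 that was higher at an unadjusted p under 0.05, where 1.28% of all probe sets were. No member was lower, where 1.81% were. The difference ran between 0.59 and 1.16 with 1 array left out, and unadjusted p was no longer under 0.05 without CCL6 replicate 2 (0.59), unstimulated replicate 1 (0.75) or unstimulated replicate 3 (0.77), nor with the methods' t-test on all arrays.

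Of the Src family kinases 2 were lower on average and 1 higher, none at an unadjusted p under 0.05. Src, the kinase that acts with focal adhesion kinase, read 9.19, 9.74 and 9.68 after CCL6, against 9.55, 10.06 and 10.10 in unstimulated cells. Its difference of -0.37 (SE 0.27) had an interval of -0.99 to 0.25, and the groups overlapped. Yes1, a close relative, read 10.67, 9.93 and 10.11 after CCL6, against 10.50, 10.26 and 10.96 in unstimulated cells, a difference of -0.34 (SE 0.30). CCL6 replicates 2 and 3 were the low arrays. Fyn, the third member of the family measured, averaged 9.05 ± 0.80 after CCL6 and 8.70 ± 0.68 in unstimulated cells (SD, n = 3 each), with a difference of 0.35 (SE 0.46).

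All 7 genes grouped here as actin linkers were higher on average after CCL6, where 48.5% of all probe sets were. Their median difference was 0.25, but none had an unadjusted p under 0.05. The group was set by name with earlier results of these data known, and kindlins and parvins were counted with integrin-linked kinase instead. In 5 of the 7 the arrays split as on the first component, so that the 7 directions are not independent. Tln1, the talin of most cells, read 15.32, 15.49 and 14.95 after CCL6, against 14.60, 15.00 and 15.41 in unstimulated cells. The groups overlapped through the arrays numbered 3, and the difference was 0.25 (SE 0.29). Vcl, vinculin, which reinforces talin under load, read 13.71, 13.94 and 13.69 after CCL6, against 13.38, 13.63 and 13.85 in unstimulated cells, a difference of 0.16 (SE 0.24). Zyx, zyxin, which gathers at strained adhesions, read 12.18, 12.30 and 11.36 after CCL6, against 11.40, 11.39 and 12.02 in unstimulated cells. CCL6 replicate 3 was the lowest array and unstimulated replicate 3 was near the other CCL6 arrays, and the difference was 0.34 (SE 0.33), with an interval of -0.40 to 1.08. Sorbs3, vinexin, which binds vinculin, read 13.10, 13.75 and 12.74 after CCL6, against 12.50, 12.33 and 13.48 in unstimulated cells, a difference of 0.43 (SE 0.38).

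Tns3, a tensin that binds the β tail and actin, had the smallest SD of these 7 genes in both groups. It read 14.14, 14.01 and 14.08 after CCL6, against 13.80, 13.91 and 13.76 in unstimulated cells, and the groups did not overlap. The difference was 0.25 (SE 0.22), or 1.19-fold, with a limma adjusted p = 0.999. The methods' t-test, which uses only this gene's own spread, put it under an unadjusted 0.05, as it did 3.66% of all probe sets, but the adjusted p = 0.998. After adjustment that test called 0.0045% of all probe sets and no member. Tns1, its relative, varied far more, between 8.52 and 10.56 after CCL6 and between 8.98 and 10.35 in unstimulated cells, and Tln2, the second talin, differed by 0.05 (SE 0.37). The count of 7 of 7 became 5 of 7 without CCL6 replicate 2, at a median of 0.13, 6 of 7 without unstimulated replicate 1, at a median of 0.05, and 6 of 7 without unstimulated replicate 2, at 0.21. It stayed at 7 of 7 when CCL6 replicate 3 (median 0.40) or unstimulated replicate 3 (0.45) was dropped.

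The core of integrin-linked kinase was split. Ilk read 13.28, 13.95 and 12.96 after CCL6, against 13.05, 13.39 and 13.21 in unstimulated cells, with a difference of 0.17 (SE 0.30). CCL6 arrays were both the highest and the lowest of the 6. Lims1, PINCH1, which binds integrin-linked kinase, read 13.06, 13.17 and 12.28 after CCL6, against 11.97, 12.28 and 12.97 in unstimulated cells, and differed by 0.43 (SE 0.35). Parva, α-parvin, differed by -0.16 (SE 0.25). Fermt2, the kindlin of mesenchymal and epithelial cells, had means of 11.17 in both groups, with SDs of 0.56 after CCL6 and 0.65 in unstimulated cells (n = 3 each).

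No docking protein had an interval clear of 0. Pxn, paxillin, read 12.51, 13.02 and 12.57 after CCL6, against 12.37, 12.60 and 12.60 in unstimulated cells, a difference of 0.18 (SE 0.25) with an interval of -0.38 to 0.74. Crkl, an adaptor that joins p130Cas and paxillin to exchange factors, read 11.25, 12.42 and 11.86 after CCL6, against 11.55, 11.67 and 11.27 in unstimulated cells. CCL6 replicate 2 stood highest, and the difference of 0.35 (SE 0.32) was 0.06 without it. Bcar1, p130Cas, differed by 0.24 (SE 0.30), Crk by -0.18 (SE 0.25), and Dock1, an exchange factor for Rac, by 0.28 (SE 0.58). Git1 and Git2, scaffolds that bring Rac regulators to paxillin, differed by -0.11 (SE 0.24) and -0.0038 (SE 0.23).

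Calpains and caveolins differed by less than their errors. Cav1, caveolin 1, a coat protein of caveolae, read 9.81, 9.59 and 9.42 after CCL6, against 9.21, 9.44 and 9.78 in unstimulated cells, a difference of 0.13 (SE 0.25), and Cav2 differed by 0.21 (SE 0.26). The calpains cut talin when adhesions are released. Capn1 differed by -0.24 (SE 0.28) and Capn2 by -0.04 (SE 0.31).

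**Figure D3:**
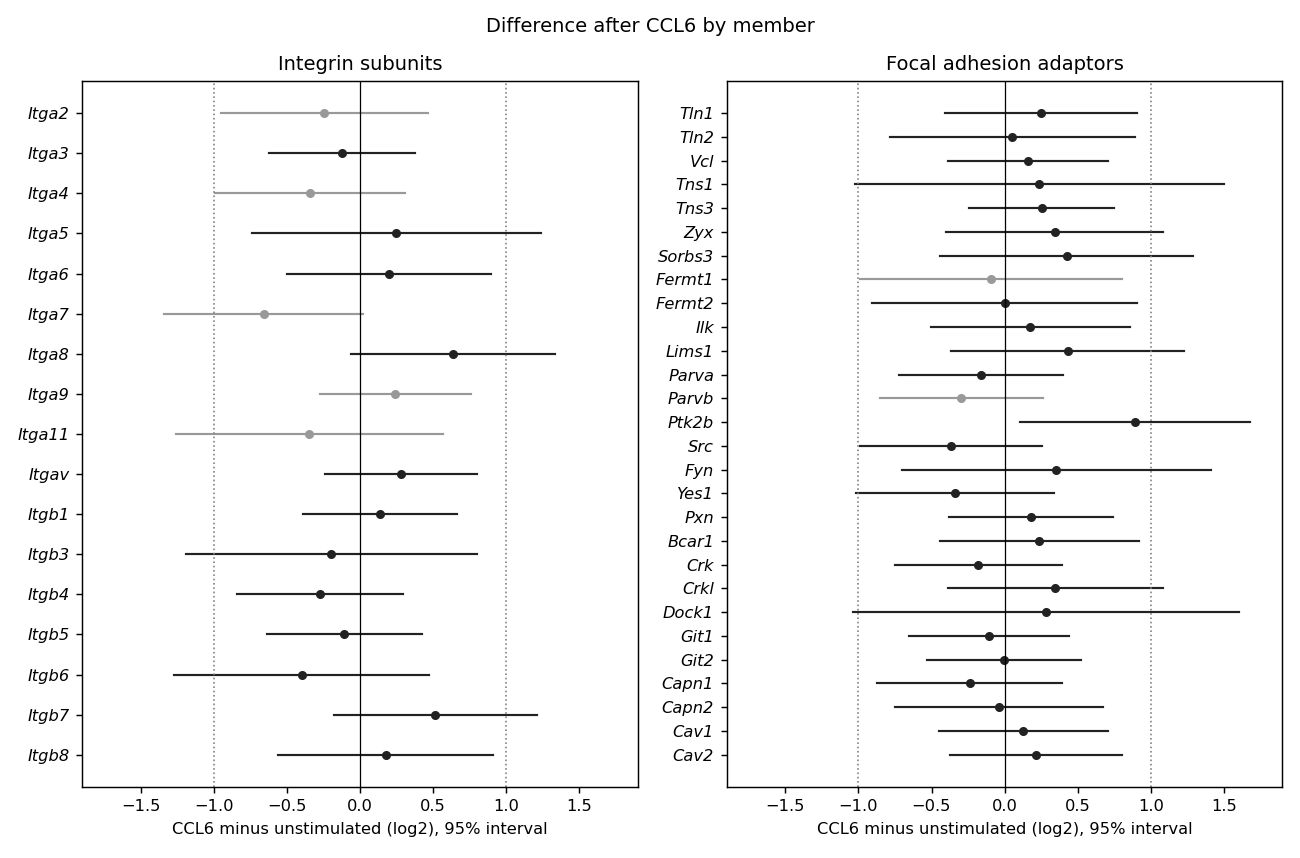
Difference in RMA value, CCL6 minus unstimulated (log2, horizontal axis), of each subunit (left) and adaptor (right), as a point with its 95% interval from limma on 6 arrays. Grey marks members below background in both groups, dotted lines mark 2-fold, and Ptk2b is the one member whose interval lies clear of 0.

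Subunits and adaptors were then set against the whole array. No member passed an adjusted p under 0.05 with limma, nor did any of the 22206 probe sets (0%). The 17 subunits were split at 8 higher and 9 lower, and their median difference was -0.11. That median includes 5 subunits below background, and over the 12 above background alone it was 0.16. The 28 adaptors stood at 18 higher and 10 lower, and their median was 0.17. Over all probe sets 48.5% were higher and the median was -0.01. For 29 of 45 members the 95% interval lay wholly within 2-fold, 10 of 17 subunits and 19 of 28 adaptors, where 63.1% of all probe sets did and 59.3% of those above background. The medians over all measured subunits and all measured adaptors depended on single arrays. Dropping CCL6 replicate 2 took that of the adaptors to -0.0027, and dropping unstimulated replicate 1 or 2 took it to 0.04 or 0.08. For the subunits it became -0.01 when CCL6 replicate 1 was dropped, 0.02 for CCL6 replicate 3, -0.02 for unstimulated replicate 1 and 0.20 for unstimulated replicate 3.

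A plainer order than that of treatment ran through the adaptors. In 14 of the 45 members CCL6 replicates 1 and 2 and unstimulated replicate 3 all read above the other 3 arrays, and in 2, Capn1 and Parvb, they all read below. Over all probe sets these shares were 12.7% and 10.6%, and over those above background 18.1% and 14.6%. The 14 were 12 adaptors and 2 subunits, Itga5 and Itgb3. They included 5 of the 7 actin linkers (Tln1, Vcl, Tns1, Zyx and Sorbs3), along with Fermt2, Lims1, Fyn, Bcar1, Dock1, Capn2 and Cav1. These sides come from the first component over all genes above background, members included, so that the counts are a description and no test is given. The proliferation genes followed the same order, with 22 of 23 above on those 3 arrays, and their part in the adaptor values was not tested.

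Tns1 had the widest gap between these sets of arrays. It read 10.06, 10.56 and 8.52 in CCL6 replicates 1, 2 and 3, against 9.09, 8.98 and 10.35 in the unstimulated ones, and the 2 sets were 0.97 apart at their nearest arrays. Dock1 read 11.15, 11.07 and 9.99 after CCL6, against 9.32, 10.31 and 11.74 in unstimulated cells, with the sets 0.76 apart. For Fermt2 the values were 11.48, 11.51 and 10.53 after CCL6, against 10.78, 10.82 and 11.92 in unstimulated cells. In each of these genes the array numbered 3 of a group read like the other group, and the treatment difference was smaller than its error. Fyn showed the same order, with 9.13, 9.81 and 8.21 after CCL6, against 8.75, 7.99 and 9.35 in unstimulated cells.

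**Figure D4:**
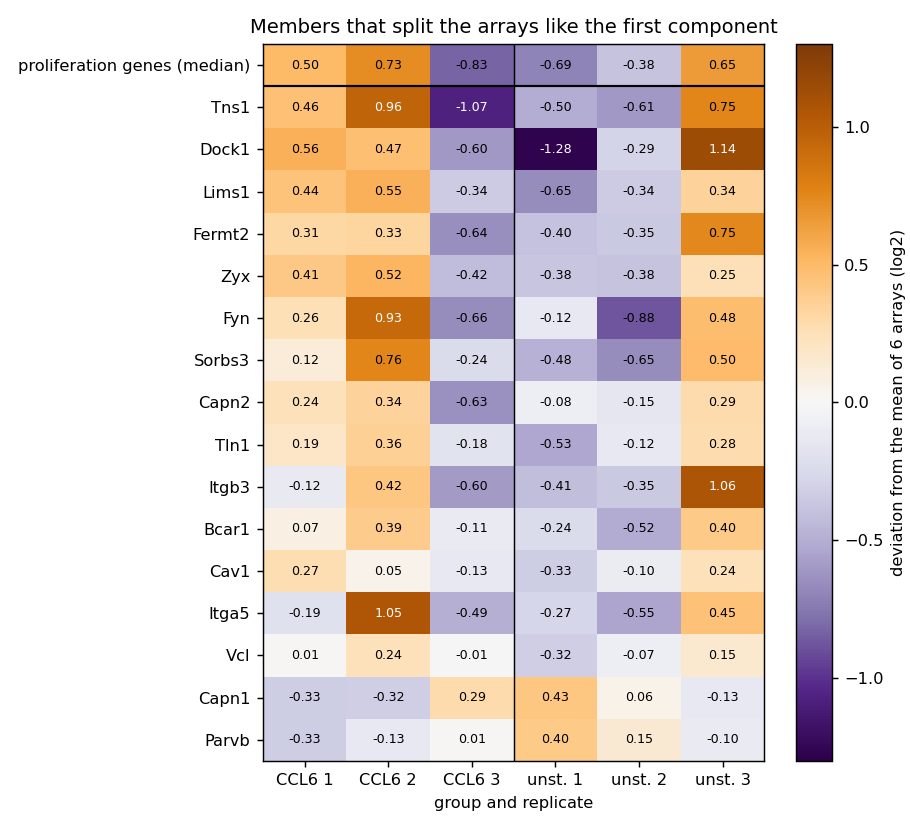
Deviation of each array (columns) from the mean of the 6 arrays (log2, colour and printed value) for the 14 members that were higher and the 2, Capn1 and Parvb, that were lower on CCL6 replicates 1 and 2 and unstimulated replicate 3. The top row is the median deviation of 23 proliferation genes, which runs from -0.83 in CCL6 replicate 3 to 0.73 in CCL6 replicate 2.

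Leaving out both arrays numbered 3 gave a different picture of the adaptors. Without them 8 adaptors were higher at an unadjusted p under 0.05, namely Tns1, Dock1, Lims1, Zyx, Sorbs3, Fyn, Fermt2 and Ptk2b, where 6.30% of all probe sets were, and the smallest adjusted p among the members was 0.204. Tns1 then differed by 1.27 (SE 0.30) and Dock1 by 1.29 (SE 0.38), and the median of the adaptors was 0.35. The 4 arrays left set CCL6 cultures with proliferation means of 12.74 and 13.07 against unstimulated cultures with 11.57 and 11.80, so that treatment and this order cannot be told apart in them. With a term for the 2 sets of arrays on all 6 arrays, 14 of 28 adaptors were higher, with a median of -0.0073, and 7 of 17 subunits, with a median of -0.13. Ptk2b was the 1 member at an unadjusted p under 0.05 in that fit, at 0.86 (SE 0.36). Over all probe sets 2.71% were higher and 3.44% lower at that threshold, and the 2 sets were taken from these same values. In that fit 5 of the 7 actin linkers were higher (median 0.08).

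Promoters of 3 of these co-varying genes are shown, chosen after the search because each held a motif of a factor tied to adhesion or growth. The sequences are the 250 bases before the RefSeq start on GRCm38.p6, given 5′ to 3′ on the strand of the gene, with the matched motifs in capitals. They lie at chr14:20929148-20929397 (plus strand), chr14:45530066-45530315 (minus strand) and chr6:42349578-42349827 (plus strand).
Vcl: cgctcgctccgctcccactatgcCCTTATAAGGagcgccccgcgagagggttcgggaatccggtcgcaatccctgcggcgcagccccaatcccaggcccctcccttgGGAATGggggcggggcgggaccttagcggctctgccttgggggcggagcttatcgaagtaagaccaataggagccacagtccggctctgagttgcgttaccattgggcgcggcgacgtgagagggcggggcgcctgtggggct
Fermt2: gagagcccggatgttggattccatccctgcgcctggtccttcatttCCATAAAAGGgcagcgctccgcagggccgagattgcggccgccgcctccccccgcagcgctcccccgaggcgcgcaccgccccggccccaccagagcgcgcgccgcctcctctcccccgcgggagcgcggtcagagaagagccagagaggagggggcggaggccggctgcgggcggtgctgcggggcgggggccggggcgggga
Zyx: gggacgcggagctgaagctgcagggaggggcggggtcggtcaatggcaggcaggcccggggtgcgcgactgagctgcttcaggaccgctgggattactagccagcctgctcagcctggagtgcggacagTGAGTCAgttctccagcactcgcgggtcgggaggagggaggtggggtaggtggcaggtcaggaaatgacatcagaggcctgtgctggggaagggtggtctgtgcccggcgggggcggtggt
The capitals mark a CArG box, the element bound by SRF, in Vcl and Fermt2, a second match in Vcl to GGAATG, the core bound by TEAD factors, and TGANTCA, the AP-1 site, in Zyx. Motifs were searched on both strands in the promoters of 36 members with an entry, 46 promoters in all. The CArG box was found in 3 of the 46, the third being that of Itgb6. It was found in 1.47% of the 32851 promoters searched, which do not cover every chromosome. GGAATG was found in 2 (Itgb1 and Vcl) and in 12.6% of those searched, TGANTCA in 3 (Capn2, Cav2 and Zyx) and in 6.75%, and GGCGGGAA, an E2F site, in 0 and in 1.86%. Itgb1, Itgb6 and Cav2, which also held a match, did not split the arrays like the first component. Tns1, Dock1, Lims1, Fyn and Tln1 did so and held none of these motifs. A match is a description of the letters and not evidence of binding, and a link of motifs to that order was not tested.

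Other genes of integrin adhesion were counted from 5 lists, with 92 measured genes. The 31 further adaptors stood at 19 higher and 12 lower (median 0.07), none at an unadjusted p under 0.05. The 3 above background with the smallest p were Tgfb1i1 (Hic-5), a paxillin relative, Ppfia1 (liprin-α1), a scaffold at adhesion edges, at 0.44 (SE 0.28), and Actn1. Tgfb1i1 averaged 4.97 ± 0.44 after CCL6 and 4.48 ± 0.40 in unstimulated cells (SD, n = 3 each), the unstimulated mean below background and 1 array of each group above it. Its CCL6 mean as measured was 1.07-fold higher when reckoned as for Itga8, with CCL6 readings below background not raised. The measured difference of 0.50 (SE 0.32) had an interval of -0.22 to 1.22, and the groups overlapped. Actn1, α-actinin 1, which crosslinks actin at adhesions, averaged 13.63 ± 0.41 after CCL6 and 13.10 ± 0.52 in unstimulated cells (SD, n = 3 each). Of 17 integrin regulators 6 were higher and 11 lower, with Rap1a, a GTPase that switches integrins on, at -0.50 (SE 0.38), and Dok1, which competes with talin for the β tail, at -0.25 (SE 0.25). Rab25, a GTPase of integrin recycling, averaged 4.95 ± 0.25 after CCL6 and 4.62 ± 0.34 in unstimulated cells (SD, n = 3 each), the unstimulated mean below background. Its CCL6 mean as measured was 1.06-fold higher when reckoned in the same way. The measured difference of 0.33 (SE 0.27) had an interval of -0.29 to 0.95, and the groups overlapped. Membrane partners such as tetraspanins were split at 6 and 6, with the tetraspanin Cd9 at -0.31 (SE 0.25), the syndecan Sdc4 at 0.28 (SE 0.27) and the hyaluronan receptor Cd44 at 0.36 (SE 0.54). Leukocyte and platelet integrins were above background in 2 of 8 cases, Itga2b, the platelet αIIb chain, at 5.85 ± 0.47 after CCL6 and 5.74 ± 0.52 in unstimulated cells, and Itgb2, the leukocyte β2 chain, at 4.86 ± 1.36 and 4.92 ± 0.45 in the same order (SD, n = 3 each). Itgb2 was thus near the level itself, and the other 6 were not above it.

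Among 24 ligand genes 13 were higher and 11 lower. At an unadjusted p under 0.05, 1 of the 24 was lower, where 1.81% of all probe sets were. This was Thbs1, thrombospondin 1, which binds integrins and the receptor CD47. It averaged 11.64 ± 0.52 after CCL6 and 12.47 ± 0.10 in unstimulated cells (SD, n = 3 each), a difference of -0.83 (SE 0.30) with a limma adjusted p = 0.999. It was also the 1 ligand gene lower without overlap, where 4.41% of all probe sets were. Lama4, a laminin chain, differed by -0.41 (SE 0.34) and Col1a1, a chain of type I collagen, by 0.55 (SE 0.47). Vcam1, a ligand of α4β1, was added for its spread. It read 7.97, 5.94 and 11.23 after CCL6, against 10.81, 10.55 and 7.33 in unstimulated cells, low on the 3 arrays that were high for proliferation genes, and its difference of -1.18 (SE 1.31) was smaller than its error.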

How the data were processed

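Total RNA of 6 ID8 samples, 3 per group, was read on biotin-labelled Clariom S mouse arrays, 1 each. The deposited values are RMA values made by the authors, on a log2 scale. Their base was taken from the range of 1.93 to 19.2, so that folds rest on it. The RMA version, its software, the build and any filter are not given in the sources used here. RMA makes array distributions alike and hides a change shared by most genes. No further normalization was done.

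Gene symbols came from the platform annotation, and 45 of 45 member symbols equalled the RefSeq symbol of the same gene identifier. The difference of CCL6 minus unstimulated was fitted over the 6 arrays in R 4.3.3 by limma 3.58.1 (lmFit, then eBayes). Tests were two-sided, and p-values were adjusted by Benjamini-Hochberg across 22206 probe sets. The limma step was run on simulated data with independent noise for each probe set. Those data hold no component shared across genes, so that they do not test its effect on the p-values. The study's methods name no array test, so their general Student's test was an alternative, called the methods' t-test. No exact permutation test of 3 against 3 arrays can go below p = 0.1. The labels call the replicates biological without naming separate cultures or days, so that p-values measure the spread between these arrays, whose number limits the precision.

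Members and lists were chosen with earlier results of these data known and are described by counts and medians. Values on every array are printed for the 5 subunits and 8 adaptors above background with the smallest unadjusted p, for members with group means on either side of the background level, and, whatever their values, for Itga5, Itgav, Itgb1, Itgb3, Itgb5, Tln1, Vcl, Pxn, Src, Ilk and Cav1. From each context list up to 3 genes above background with the smallest p are named. Itga7, Tns1, Dock1, Fermt2, Fyn and Vcam1 were added after their values were seen. Alternatives were 3 normalizations, 2 filters, a variance trend, background levels at the 90th and 99th percentile, array weights, a replicate block, a term for the 2 sets of arrays, and fits without each array or both numbered 3.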

Additional observations from a re-analysis of the deposited data

How the results depend on the processing

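No member passed an adjusted p under 0.05 in any of 17 alternatives, and the smallest adjusted p was 0.204, without both arrays numbered 3. The count of members higher at an unadjusted p under 0.05 was 8 in that fit, where 6.30% of all probe sets were. With 1 array left out it was between 0 and 2, where 0.77% to 2.25% of all probe sets were higher. The count of lower ones was then between 0 and 1, where 1.06% to 2.60% were. The median of the subunits was 0.11 with array weights, 0.16 over probe sets above background and 0.12 without both arrays numbered 3, and ran from -0.12 to 0.20 with 1 array left out. That of the adaptors ran from -0.0027 to 0.25 with 1 array left out. The median of 0.16 covers only the 12 subunits above background, and the cause of the other shifts was not tested. Of the 22 members whose array values are printed by rule, 18 kept their sign in all alternatives run. Itga5 turned to -0.0505 with the array set block and ran from -0.22 to 0.56 with 1 array left out. Itgb3 turned to 0.11 with array weights and 0.53 without both arrays numbered 3, and ran from -0.45 to 0.28. Ilk ran from -0.10 to 0.39 and Cav1 from -0.0069 to 0.28. Outside these 22, members also turned, among them Tns1 (-0.28), Dock1 (-0.22), Fermt2 (-0.35), Fyn (-0.0188) and Tln2 (-0.17) with the array set block, Capn2 without both arrays numbered 3 (0.40) and Itga6 without CCL6 replicate 2 (-0.0343). Counts above background were 11 to 12 for subunits and 25 to 27 for adaptors under the alternatives. With the replicate number as a block, 0 members passed an adjusted p under 0.05. At an unadjusted p under 0.05, 1 was higher and 0 were lower, where 0.901% and 1.23% of all probe sets were. The medians of -0.11 and 0.17 were the same by construction. Deviations of same-numbered arrays from their group means had r = -0.083, -0.232 and -0.661 across genes for replicates 1, 2 and 3. With 3 arrays per group and 50.8% of the variance on the first component, these values cannot decide whether same-numbered arrays were paired. The methods' t-test called 1 of 22206 probe sets after adjustment, which was no member.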
